A study of Mus musculus with 12 samples.

Results

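Loss of miR-34a was compared between colon tumours that also lacked p53 and colon tumours that kept it, gene by gene, in RNA sequencing of 12 libraries. The quantity is the interaction of the deletions: the change with miR-34a loss in p53 deficient tumours, that is double deficient minus p53 deficient, less the change with miR-34a loss in p53 proficient tumours, that is miR-34a deficient minus wt. An interaction of 0 means that the deletions add up on the log2 scale. Of 21792 genes in the deposited table, the 21322 with a mean normalized value of at least 1 were tested, in all 12 libraries of the series. The mice were of the FvB strain and all received azoxymethane (AOM), a carcinogen that induces colon tumours, by intraperitoneal injection of 10 mg/kg in each of 6 weeks, and the experiment ended at week 16. The genotypes were double deficient (miR-34a/p53 deficient in intestinal epithelial cells, IEC), p53 deficient in IEC, miR-34a deficient in IEC, and wt, with 3 libraries each. The deletions are in the epithelium, so other cells of the tumours keep both genes, and whether libraries of a genotype come from separate animals is not stated. The p-values therefore reflect only how far these libraries differ within a genotype, which may be technical. The driver of the deletions, the age of the mice and any pooling are not stated in the labels.

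p53 is a transcription factor that stress activates and that switches on genes of cell cycle arrest, DNA repair and cell death. The gene of the microRNA miR-34a is one of its direct targets, and miR-34a in turn lowers messenger RNAs that carry a match to its seed in their 3' untranslated region. In the gut the pair is known for restraining tumour growth, partly through cytokine signals such as IL-6 and its receptor, and other p53 targets act without miR-34a. Whether removing both does more, or something else, than the sum of removing each is the question that the interaction addresses.

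The mature miR-34a and its best known kind of target site are shown because the deletion removes this pairing. The microRNA is given as RefSeq lists it on GRCm38.p6 (chr4:150068473-150068494, plus strand), with the seed, bases 2 to 8, in capitals, and the sites are 22 bases of annotated 3' untranslated regions (GENCODE M21, GRCm38) with the match to the seed followed by A in capitals.
mmu-miR-34a-5p: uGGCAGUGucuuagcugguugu
Axl site (chr7:25758611-25758632, minus strand): ggacccaagctaggCACTGCCA
Il6ra site (chr3:89869829-89869850, minus strand): ttcctgctacacctCACTGCCA
Snai1 site (chr2:167542123-167542144, plus strand): ctcaccctcctcctCACTGCCA

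In the p53 deficient genotypes Trp53, the deleted gene, had normalized values of 924, 504 and 724 in double deficient libraries and 598, 401 and 576 in p53 deficient libraries. In the genotypes that keep p53 it had 4357, 3466 and 5120 in miR-34a deficient libraries and 4512, 4305 and 4126 in wt libraries. The levels of the p53 deficient genotypes did not overlap those of the others, and the interaction of Trp53 was 0.45 ± 0.33 (SE, log2). Vil1, an epithelial cytoskeleton gene, was between 16701 and 29871 in every library, with an interaction of -0.02 ± 0.31. Reads of miR-34a itself were not analysed here.

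Several libraries stood apart in ways that touch the comparison. The 4 Y-linked genes Ddx3y, Eif2s3y, Kdm5d and Uty averaged 0.25, 0.40 and 0.79 (log2 of value plus 1) in the double deficient libraries, 0 in wt 1 and miR-34a deficient 1, and 2.77 to 6.98 in the other 7. Xist, the RNA of the silenced X chromosome, made up 5.92%, 4.52% and 1.24% of the column sum in the double deficient libraries, 52.8% in miR-34a deficient 1, 23.2% in wt 1 and at most 0.234% in the others. Y-linked signal therefore separates the double deficient group from the p53 deficient group and cannot be told apart from the change between them, except through wt 1 and miR-34a deficient 1. The squamous keratins Krt5 and Krt6b reached 115764 and 104171 in miR-34a deficient 3, against at most 200 and 3268 in the other 11 libraries. A code in the library names, whose meaning is not stated, is shared by 10 libraries and differs in miR-34a deficient 1 and p53 deficient 1. Deviations of libraries from their genotype means span 7 dimensions where the design leaves 8, and 47.2% and 16.5% of the squared weights of the missing direction lie on double deficient 3 and 2.

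Few genes passed the test for a departure from additivity. The interaction passed an adjusted p of 0.05 for 5 genes (0.0234% of those tested), all of them below 0: Gm15195, Fshr, Gm12196, Gm10093 and Gm7125. At an unadjusted p under 0.05 there were 1683 genes, of which 696 were above 0 and 987 below. Over all genes the median interaction was 0.01 and 50.5% of genes were above 0. The median SE was 0.49 and the median half-width of the 95% interval was 1.07, so that for a typical gene an interaction smaller than that was not resolved at 3 libraries per genotype. The interval is not adjusted over genes, so passing took a larger interaction still. Estimates beyond 1 in either direction were found for 3206 genes (15.0%).

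The simple changes that make up the interaction differed in their number of calls. Double deficient against p53 deficient tumours differed in 129 genes (0.605%), 48 higher and 81 lower, and miR-34a deficient against wt tumours in 8 genes (0.0375%), 3 higher and 5 lower. Read the other way, double deficient against miR-34a deficient tumours differed in 193 genes (0.905%), 61 higher and 132 lower, and p53 deficient against wt tumours in 5 genes (0.0234%), 1 higher and 4 lower. These counts are not a test of the difference between the changes, which is the interaction itself. Double minus p53 and miR-34a minus wt share no library, and across genes, which are not independent replicates, they correlated with a Pearson r of 0.244 and a Spearman rho of 0.214. Double minus miR-34a and p53 minus wt correlated with a Pearson r of 0.337 and a rho of 0.345.

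**Figure D1:**
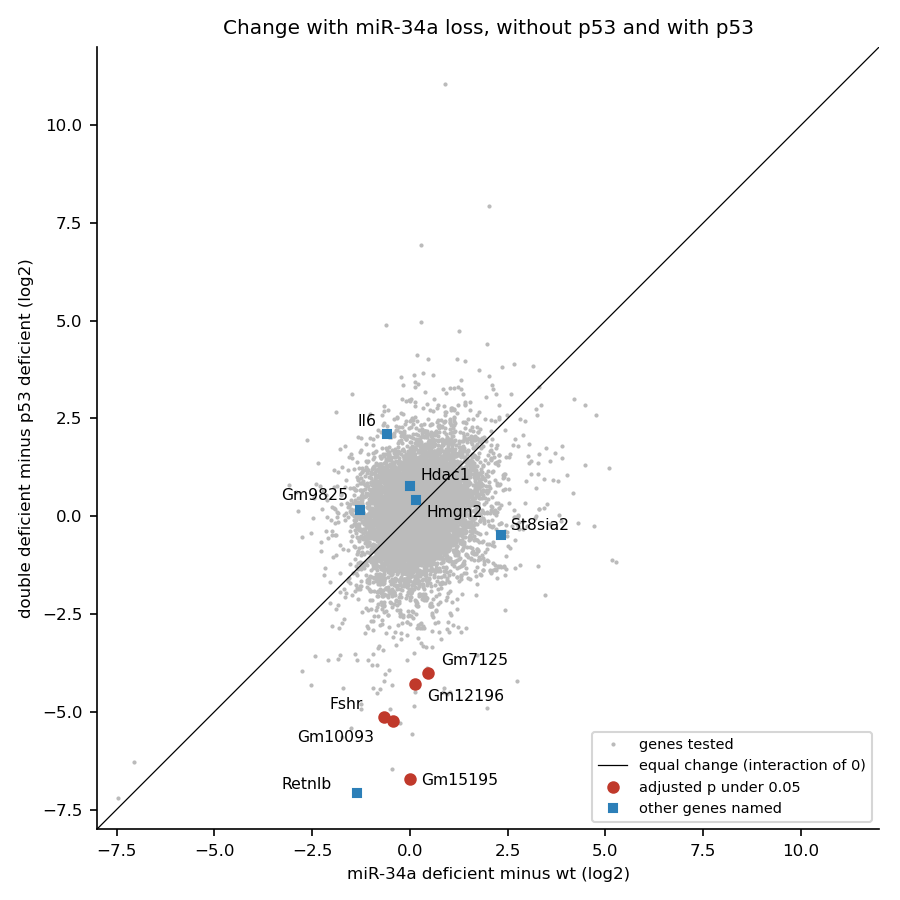
Change with miR-34a loss in p53 deficient tumours (y axis, double minus p53 deficient, log2) against the change in p53 proficient tumours (x axis, miR-34a deficient minus wt, log2) for the 21322 genes tested, with the line on which both changes are equal. The 5 genes that passed lie far below the line, with a y value between -6.72 and -4.02 and an x value between -0.67 and 0.47.

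The gene with the smallest p was Gm15195, a processed pseudogene on chromosome X (chrX:160269701-160269963, GRCm38). Its normalized values were 1, 3 and 3 in double deficient libraries, against 259, 362 and 393 in p53 deficient libraries, and 279, 201 and 328 in miR-34a deficient libraries, against 327, 184 and 296 in wt libraries. The 3 double deficient libraries lay far below the other 9, which overlapped one another. The interaction was -6.73 ± 0.51 (log2, 95% interval -7.86 to -5.61, adjusted p = 0.000684): the change with miR-34a loss was -6.72 ± 0.36 without p53 and 0.02 ± 0.36 with p53.

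Fshr, which encodes the receptor for follicle-stimulating hormone, was the only called gene with a symbol that is not a clone or predicted-gene name (chr17:88984952-89200675). It had 58, 33 and 32 in double deficient libraries, against 1321, 1712 and 1264 in p53 deficient libraries, and 1187, 1701 and 1002 in miR-34a deficient libraries, against 2311, 2737 and 1286 in wt libraries. Again the double deficient libraries were below all 9 others. The interaction was -4.47 ± 0.46 (adjusted p = 0.00779), made up of -5.13 ± 0.32 without p53 and -0.67 ± 0.32 with p53. If the deletions added up, the double deficient mean would have been 9.80 on the log2 scale, and it was 5.34 ± 0.47 (SD, n = 3). Of the genes around Fshr on chromosome 17, chosen after their values were seen, Ston1 (-0.50 ± 0.45) and Ppp1r21 (0.07 ± 0.40) did not pass. Another called gene, Gm10093, described next, also lies on chromosome 17.

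Gm10093 (chr17:78491582-78493025) is a processed pseudogene. It had 46, 104 and 103 in double deficient libraries, against 2258, 3527 and 3394 in p53 deficient libraries, and 2076, 2106 and 4053 in miR-34a deficient libraries, against 4714, 4747 and 1981 in wt libraries. Its interaction was -4.79 ± 0.59 (adjusted p = 0.0258). Gm12196 (chr11:50347628-50347889), also a processed pseudogene, was at 1, 0 and 0 in double deficient libraries, against 28, 25 and 19 in p53 deficient libraries, and at 14, 11 and 12 in miR-34a deficient libraries, against 10, 10 and 14 in wt libraries. These low values give an interaction of -4.42 ± 0.53 (adjusted p = 0.0258) that depends on the pseudocount of 1. Gm7125 (chr15:68792320-68883576), annotated as a long intergenic noncoding RNA, had 24, 23 and 19 in double deficient libraries, against 268, 572 and 332 in p53 deficient libraries, and 573, 456 and 342 in miR-34a deficient libraries, against 187, 611 and 291 in wt libraries. Its interaction was -4.49 ± 0.59 (adjusted p = 0.0358). In all 5 called genes the double deficient libraries lay below every other library, a pattern held by 465 of all genes tested (2.18%), with 378 (1.77%) above every other library.

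The calls differed in how far they held. Gm15195 passed in all 26 alternative fits, Fshr in 23 of 26, Gm10093 in 10 of 26, Gm12196 in 10 of 25 and Gm7125 in 8 of 26. Within the 10 libraries that share the name code, Gm15195 passed and Fshr had -4.56 with an adjusted p of 0.0556. Without wt 1 and miR-34a deficient 1, Gm15195 was the only one of the 5 that passed, and Fshr had -4.61 with an adjusted p of 0.0800. Of the 12 fits without 1 library, Gm10093 passed without wt 2, wt 3 or p53 deficient 1, Gm12196 without wt 3, p53 deficient 1 or double deficient 1, and Gm7125 without wt 2 or p53 deficient 1, and each missed the threshold without any 1 of the others. With the Y-linked mean as a term of the fit Gm15195 alone passed, and with the missing direction as a term Gm15195 and Fshr passed. Adding that direction left the 5 interactions unchanged and raised their SE. Gm10093 and Gm12196 then had an adjusted p of 0.0819 and Gm7125 of 0.0953 (limma).

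**Figure D2:**
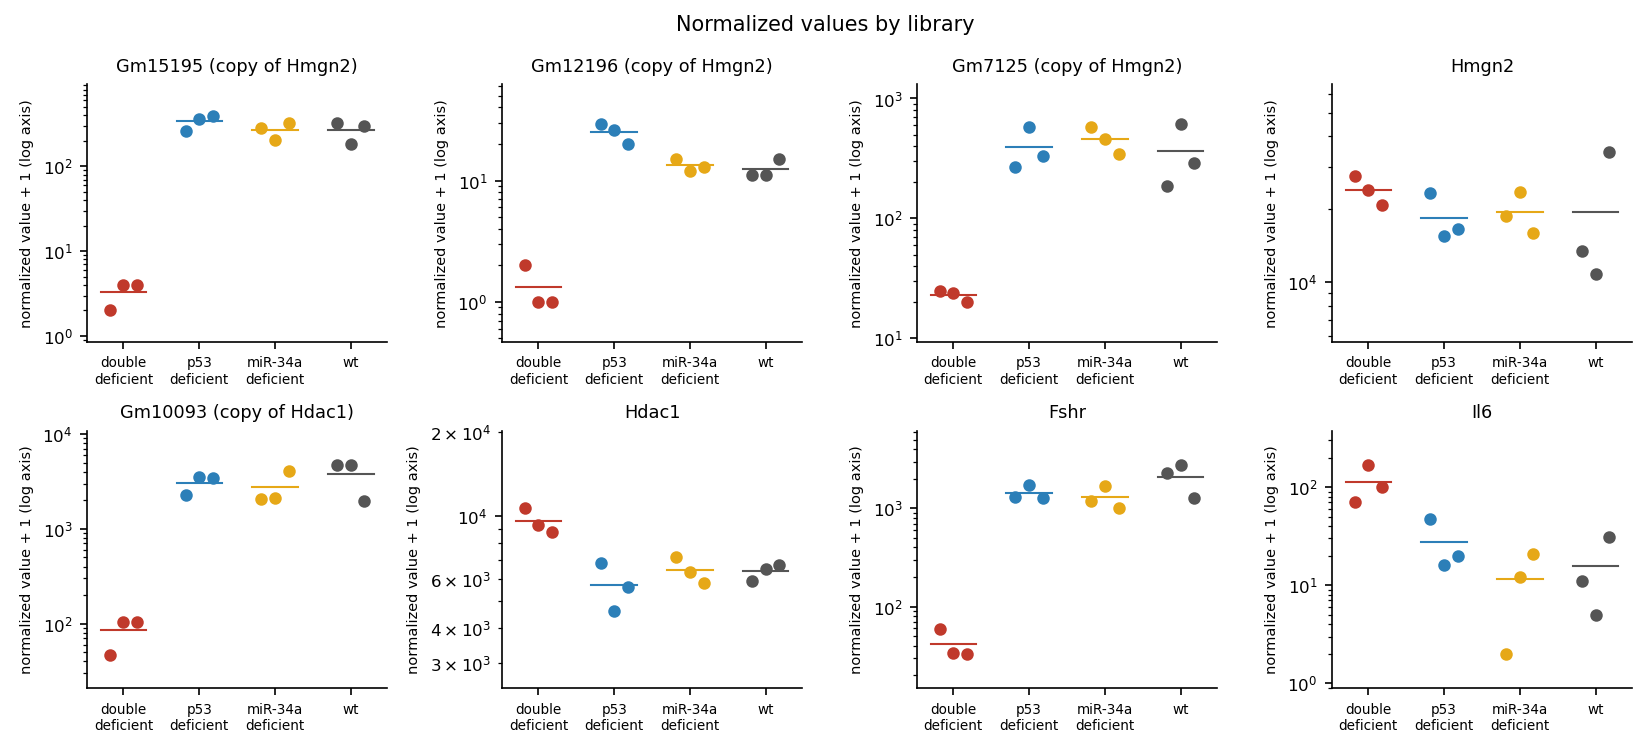
Normalized values plus 1 (log axis) in each library for the 5 genes whose interaction passed, for Hmgn2 and Hdac1, and for Il6. Points are libraries and bars are genotype means (n = 3); the double deficient libraries lie below the other 9 for the 5 called genes and above them for Hdac1 and Il6.

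What 4 of the 5 called genes share, which the test did not use, is their sequence: they hold copies of spliced coding sequences of other genes, that is retrocopies. By BLAST against the transcripts of GENCODE M21, the protein-coding gene closest to Gm15195, Gm12196 and Gm7125 was Hmgn2, at 90.1% identity over 273 aligned bases, 90.9% over 263 and 97.4% over 273. Hmgn2 encodes a nucleosome-binding high mobility group protein. Gm10093 was closest to Hdac1, which encodes a histone deacetylase, at 99.4% over 1444 bases. For Fshr the closest other gene was its relative Tshr, at 70.3% over 892 bases. Among all genes tested 1440 (6.75%) are annotated as processed pseudogenes, against 3 of the 5 called and 8 of the 50 with the smallest p.

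The copies are shown beside the coding sequence of Hmgn2 because reads from genes this alike may be split between them by the authors' counting, which makes each value uncertain. Bases of a copy that differ from Hmgn2 are in capitals, 17 in Gm15195, 21 in Gm12196 and 7 in Gm7125, and deleted bases are left out. Positions are of GRCm38.
Hmgn2 coding sequence (chr4:133965538-133967809, minus strand, spliced): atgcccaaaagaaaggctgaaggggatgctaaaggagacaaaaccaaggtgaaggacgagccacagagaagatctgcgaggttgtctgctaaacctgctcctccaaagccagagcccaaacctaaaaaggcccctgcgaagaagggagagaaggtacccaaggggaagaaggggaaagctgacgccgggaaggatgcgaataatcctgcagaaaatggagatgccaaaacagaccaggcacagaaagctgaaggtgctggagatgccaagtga
Gm15195 copy (chrX:160269701-160269963, minus strand): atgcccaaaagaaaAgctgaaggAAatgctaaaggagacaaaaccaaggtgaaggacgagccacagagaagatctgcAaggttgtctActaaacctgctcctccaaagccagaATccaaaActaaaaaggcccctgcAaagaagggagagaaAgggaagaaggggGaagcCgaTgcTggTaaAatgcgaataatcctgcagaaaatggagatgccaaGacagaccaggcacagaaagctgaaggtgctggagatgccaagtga
Gm12196 copy (chr11:50347630-50347889, plus strand): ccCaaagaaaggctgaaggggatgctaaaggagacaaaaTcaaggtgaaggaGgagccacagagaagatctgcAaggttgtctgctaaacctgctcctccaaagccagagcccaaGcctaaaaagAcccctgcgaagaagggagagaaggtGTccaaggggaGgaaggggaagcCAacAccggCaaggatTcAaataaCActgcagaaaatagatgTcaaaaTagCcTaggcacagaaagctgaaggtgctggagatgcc
Gm7125 copy (chr15:68876790-68877062, plus strand): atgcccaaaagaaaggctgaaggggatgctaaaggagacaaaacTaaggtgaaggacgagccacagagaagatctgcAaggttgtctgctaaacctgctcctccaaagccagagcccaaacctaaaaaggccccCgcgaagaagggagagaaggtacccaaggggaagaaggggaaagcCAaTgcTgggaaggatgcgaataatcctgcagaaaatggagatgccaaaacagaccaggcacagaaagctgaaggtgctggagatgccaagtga

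For Hdac1 and Gm10093, which differ at 9 positions of the alignment, the 60 bases with most differences are shown, with the differing bases in capitals.
Hdac1 stretch (chr4:129522975-129523034, minus strand): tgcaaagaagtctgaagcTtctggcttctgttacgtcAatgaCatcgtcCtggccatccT
Gm10093 stretch (chr17:78492004-78492063, plus strand): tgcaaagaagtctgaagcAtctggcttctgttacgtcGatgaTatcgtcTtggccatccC

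After the called genes were seen, all genes tested with at least 80% identity over at least 200 bases to the coding sequence of Hmgn2 were gathered, which gave 14 copies. All 14 had an interaction below 0, 9 at an unadjusted p under 0.05, and 3 passed, with a median of -1.95 beside 0.01 over all genes. In 7 of the 14 the double deficient libraries were below the other 9, beside 2.18% of all genes tested. The 3 that passed prompted the search and are counted in each of these numbers. Of all 21322 genes tested, 10546 were below 0, 987 of them at an unadjusted p under 0.05. Gm16510 (86.3% identity) had 7, 1 and 6 in double deficient libraries, against 206, 536 and 701 in p53 deficient libraries, and 148, 284 and 489 in miR-34a deficient libraries, against 486, 324 and 348 in wt libraries. Its interaction of -6.00 ± 0.87 missed the threshold (adjusted p = 0.0721). At the other end of the 14, Gm7931 had 78, 39 and 68 in double deficient libraries, against 80, 33 and 74 in p53 deficient libraries, and 50, 35 and 123 in miR-34a deficient libraries, against 46, 63 and 34 in wt libraries, with an interaction of -0.34 ± 0.72. The copies thus ranged between levels near 0 in double deficient tumours and levels within those of the other genotypes. Genes that share sequence with one another are not independent of each other.

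The parent genes moved otherwise. Hmgn2 had 27344, 24085 and 20851 in double deficient libraries, against 23241, 15451 and 16524 in p53 deficient libraries, and 18781, 23548 and 15934 in miR-34a deficient libraries, against 13489, 10806 and 34343 in wt libraries, and its interaction was 0.24 ± 0.50 (adjusted p = 0.940). Hdac1 had 10706, 9308 and 8804 in double deficient libraries, against 6837, 4585 and 5600 in p53 deficient libraries, and 7165, 6310 and 5779 in miR-34a deficient libraries, against 5885, 6485 and 6726 in wt libraries. The double deficient libraries were above all 9 others for Hdac1, beside 1.77% of all genes tested. The Hdac1 interaction of 0.77 ± 0.22 did not pass (adjusted p = 0.440). With Hdac1 and Gm10093 added up before the fit, the interaction was 0.29 ± 0.18 (95% interval -0.11 to 0.70, adjusted p = 0.728). The sum of Hdac1 and Gm10093 was 10752, 9412 and 8907 in double deficient libraries, 9095, 8112 and 8994 in p53 deficient libraries, 9241, 8416 and 9832 in miR-34a deficient libraries and 10599, 11232 and 8707 in wt libraries, so all 4 genotypes overlapped.

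The share of a family's summed value that lay in its copies shows the same split without the level of the family. For Hdac1 it was 0.428%, 1.10% and 1.16% in double deficient libraries, 24.8%, 43.5% and 37.7% in p53 deficient libraries, 22.5%, 25.0% and 41.2% in miR-34a deficient libraries and 44.5%, 42.3% and 22.8% in wt libraries. For Hmgn2 it was 3.75%, 3.20% and 7.28% in double deficient libraries, 9.91%, 29.4% and 25.2% in p53 deficient libraries, 15.0%, 13.4% and 27.7% in miR-34a deficient libraries and 24.4%, 25.5% and 7.17% in wt libraries. In the Hmgn2 family the groups overlapped, since wt 3 lay just below double deficient 3. Of the 9 other libraries, p53 deficient 1, miR-34a deficient 1 and 2, and wt 3 had the lowest shares in both families. Whether copies of these genes differ between the mice in sequence or number was not tested.

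**Figure D3:**
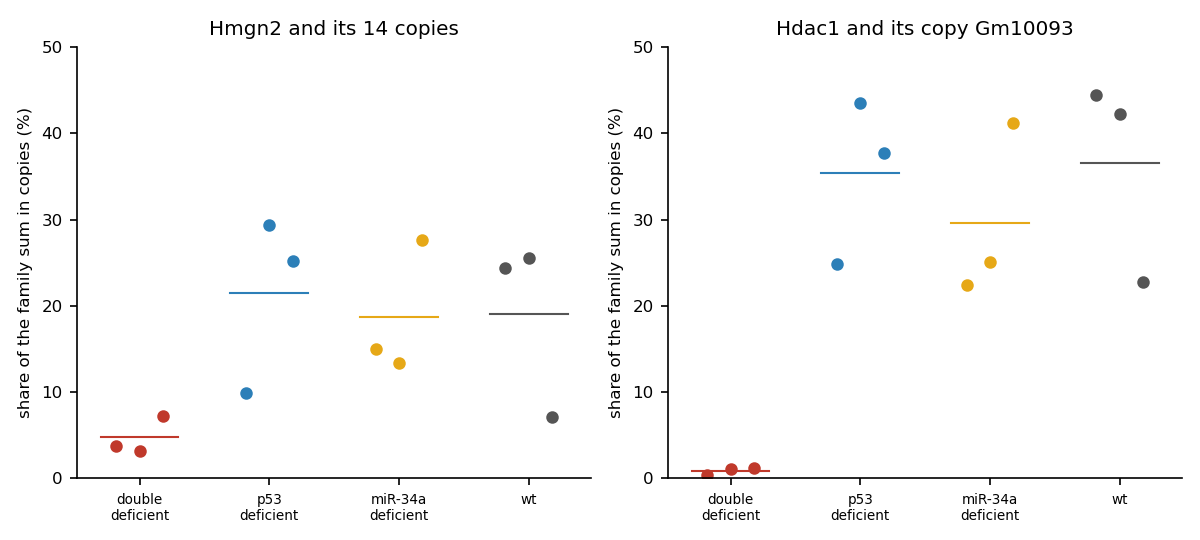
Share (%) of a family's summed normalized value that falls on its retrocopies, by library, for Hmgn2 with 14 copies and for Hdac1 with Gm10093; points are libraries and bars are genotype means (n = 3). For Hdac1 the double deficient libraries are at 0.428% to 1.16% and the other 9 at 22.5% to 44.5%.

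Retrocopies could also stand apart in another genotype. Gm9825, a copy of Rnps1 (99.4% identity over 843 bases) chosen after its values were seen, averaged 12.28 ± 0.16 (log2, SD, n = 3) in double deficient libraries, against 12.11 ± 0.23 in p53 deficient libraries, and 10.67 ± 0.16 in miR-34a deficient libraries, against 11.94 ± 0.07 in wt libraries. It was low in miR-34a deficient tumours alone, its miR-34a change with p53 passed (-1.27 ± 0.15, adjusted p = 0.0112), and its interaction did not (1.43 ± 0.21, adjusted p = 0.0721).

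Among genes with ordinary symbols and a mean log2 level of at least 5, the 9 that followed Fshr in the negative direction did not pass, with adjusted p between 0.0916 and 0.248. In 8 of these 9, and in Fshr, the double deficient libraries were below the other 9, beside 2.18% of all genes tested. A choice by smallest p in these libraries favours this pattern. Gpr110, an adhesion G protein-coupled receptor gene, had 312, 249 and 279 in double deficient libraries, against 885, 1011 and 1325 in p53 deficient libraries, and 579, 872 and 561 in miR-34a deficient libraries, against 679, 623 and 586 in wt libraries, an interaction of -1.98 ± 0.30 (adjusted p = 0.0916). Phactr4, which encodes an actin- and phosphatase-binding protein, had 2112, 1711 and 1811 in double deficient libraries, against 7177, 5172 and 6465 in p53 deficient libraries, and 5026, 4763 and 5489 in miR-34a deficient libraries, against 5074, 6321 and 7043 in wt libraries (-1.47 ± 0.23, adjusted p = 0.0916). Both changes without p53 passed, at -1.92 ± 0.21 for Gpr110 (adjusted p = 0.00248) and -1.73 ± 0.16 for Phactr4 (adjusted p = 0.000871), while the interaction, whose SE is larger, did not. Of the 9 genes, 7 passed in the interaction under at least 1 of the 26 alternatives. Gpr110, Fam124a, Phactr4 and Ikzf2 passed only with sample weights, whose fit did not converge.

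Ly6g, a surface marker of neutrophils, had 1407, 2469 and 1853 in double deficient libraries, against 7051, 13517 and 10509 in p53 deficient libraries, and 4410, 7457 and 5208 in miR-34a deficient libraries, against 4555, 7234 and 4635 in wt libraries (-2.48 ± 0.42, adjusted p = 0.141). Of the 19 neutrophil markers tested, Ly6g among them, 10 were above 0 and 9 below, with a median of 0.35 that was -0.19 without wt 2. Ngp, a granule protein gene and the marker above 0 with the smallest p, was at 22, 12 and 15 in double deficient libraries and at 0 to 5 in the other 9, an interaction of 2.88 ± 0.90 (adjusted p = 0.491). Fam124a had an interaction of -1.50 ± 0.23, Pag1, a membrane adaptor of Src family kinases, -1.77 ± 0.30, Ikzf2, a lymphoid zinc finger factor, -2.22 ± 0.40, and Cwh43 -1.30 ± 0.24. Gsta1, a glutathione transferase gene of detoxification, had 301, 299 and 351 in double deficient libraries, against 1394, 3222 and 3374 in p53 deficient libraries, and 419, 958 and 542 in miR-34a deficient libraries, against 788, 728 and 821 in wt libraries (-2.59 ± 0.49, adjusted p = 0.231). Its double deficient values lay closest to those of the p53 proficient genotypes, and its interaction passed within the 10 libraries that share the name code (-3.27, adjusted p = 0.0203). St8sia2, a polysialic acid transferase gene, differed in shape: it was high in miR-34a deficient libraries, at 1265, 1035 and 2225, against 228, 472 and 210 in wt libraries, and had 83, 63 and 60 in double deficient libraries, against 134, 90 and 70 in p53 deficient libraries (-2.80 ± 0.54, adjusted p = 0.248).

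In the positive direction no gene passed, and the 9 reported here of the 10 with the smallest p had adjusted p between 0.248 and 0.336. Ckap4, a membrane protein gene of the endoplasmic reticulum, had 6597, 6226 and 6014 in double deficient libraries, against 4418, 4228 and 4463 in p53 deficient libraries, and 3589, 3904 and 3309 in miR-34a deficient libraries, against 4037, 4334 and 4543 in wt libraries (0.78 ± 0.15). Paox, a polyamine oxidase gene, had 1908, 1598 and 1531 in double deficient libraries, against 1506, 1101 and 1215 in p53 deficient libraries, and 777, 671 and 515 in miR-34a deficient libraries, against 1313, 1051 and 1273 in wt libraries (1.31 ± 0.27). Both had double deficient libraries above the other 9, as had Hsd3b7, an enzyme gene of bile acid synthesis (0.95 ± 0.22). Over all genes tested 1.77% had this pattern, which a choice by smallest p favours. For 6 of the 9 the groups overlapped. Faah, which encodes a fatty acid amide hydrolase, had 2024, 1934 and 2046 in double deficient libraries, against 1002, 1018 and 1187 in p53 deficient libraries, and 2062, 1743 and 1532 in miR-34a deficient libraries, against 2044, 2030 and 1662 in wt libraries (1.02 ± 0.21). Here the p53 deficient libraries alone were low. Bid, a p53-regulated gene of the death receptor pathway, had 1.04 ± 0.24, Prdx2, an antioxidant peroxidase gene, 0.77 ± 0.17, Samd1 1.20 ± 0.25, Anxa6, an annexin gene, 2.11 ± 0.49 and Sectm1b 1.91 ± 0.44. In these 9 genes the change with miR-34a loss with p53 was below 0, between -0.90 and -0.01, which the formula of the interaction enters with a reversed sign.

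Beside 0.0234% of all genes tested, none of the 23 genes reported here that were chosen for the study's question passed in the interaction. Of the p53 targets among them, Cdkn1a, which encodes the cell cycle inhibitor p21, had 5448, 7855 and 6695 in double deficient libraries, against 9454, 10113 and 12694 in p53 deficient libraries, and 17793, 24443 and 24519 in miR-34a deficient libraries, against 22035, 35763 and 11867 in wt libraries. Its interaction was -0.76 ± 0.46 (95% interval -1.76 to 0.24, adjusted p = 0.720). Mdm2, which encodes the ubiquitin ligase that degrades p53, had 3103, 3332 and 3188 in double deficient libraries, against 3553, 3988 and 4296 in p53 deficient libraries, and 4283, 4715 and 4318 in miR-34a deficient libraries, against 3533, 5088 and 4198 in wt libraries (-0.36 ± 0.20, adjusted p = 0.692). In both the double deficient libraries were below the other 9, beside 2.18% of all genes tested, a pattern that changes which add up can also give. Ccng1, a cyclin G gene, had 1402, 1228 and 1261 in double deficient libraries, against 1764, 1665 and 1363 in p53 deficient libraries, and -0.42 ± 0.25 as its interaction.

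None of the 34 core p53 targets passed, beside 0.0234% of all genes tested. Of the 34, 23 were below 0, with a median of -0.29 beside 0.01 over all genes. The smallest p among them belonged to Perp, whose product is part of desmosomes (-0.47 ± 0.17), to Pmaip1, which encodes the death protein Noxa (-0.68 ± 0.29), and to Sesn2, a stress sensor gene (-0.71 ± 0.32), with adjusted p between 0.544 and 0.626. Perp had 10806, 12907 and 12151 in double deficient libraries, against 16741, 16076 and 17539 in p53 deficient libraries, and 14727, 17211 and 15462 in miR-34a deficient libraries, against 17644, 14354 and 16368 in wt libraries. The double deficient libraries were the lowest for Perp, beside 2.18% of all genes tested, and the other genotypes overlapped.

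Il6, which encodes the cytokine interleukin-6, had 70, 165 and 100 in double deficient libraries, against 46, 15 and 19 in p53 deficient libraries, and 1, 11 and 20 in miR-34a deficient libraries, against 10, 4 and 30 in wt libraries. The double deficient libraries were above all others, beside 1.77% of all genes tested, at low values throughout. The interaction was 2.69 ± 1.24 (95% interval -0.03 to 5.40, adjusted p = 0.631), with changes of 2.10 ± 0.88 without p53 (adjusted p = 0.285) and -0.59 ± 0.88 with p53. Il6ra, the receptor gene with the site shown above, had 179, 224 and 145 in double deficient libraries, against 254, 63 and 125 in p53 deficient libraries, and 205, 218 and 385 in miR-34a deficient libraries, against 122, 370 and 103 in wt libraries (-0.12 ± 0.78). The wt and p53 deficient libraries each spread over more than the differences between genotypes. Socs3, a feedback inhibitor of the pathway, had an interaction of 0.14 ± 0.48, and Il11, a related cytokine gene, 0.30 ± 0.75. Among the 20 genes of the IL-6 family and STAT3 response 12 were above 0 with a median of 0.07. Socs1, another feedback inhibitor, had 728, 563 and 603 in double deficient libraries, against 284, 119 and 445 in p53 deficient libraries, and 221, 410 and 220 in miR-34a deficient libraries, against 327, 307 and 288 in wt libraries (1.52 ± 0.58, adjusted p = 0.567), and Stat3 and Jak1 had -0.38 ± 0.18 and -0.38 ± 0.20.

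Of the genes of plasminogen activation, Plau, which encodes the urokinase-type activator, had 3317, 3480 and 2837 in double deficient libraries, against 3002, 4470 and 3290 in p53 deficient libraries, and 2111, 2224 and 1845 in miR-34a deficient libraries, against 2298, 5480 and 1766 in wt libraries. The range of the wt libraries held all values of the other genotypes. Its interaction was 0.31 ± 0.47 (95% interval -0.72 to 1.34), that of Plat, the tissue-type activator gene, was -0.34 ± 0.85, and that of the receptor gene Plaur was 0.06 ± 0.46. The list of 12 plasminogen activation genes had a median of -0.10, with 4 above 0.

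**Figure D4:**
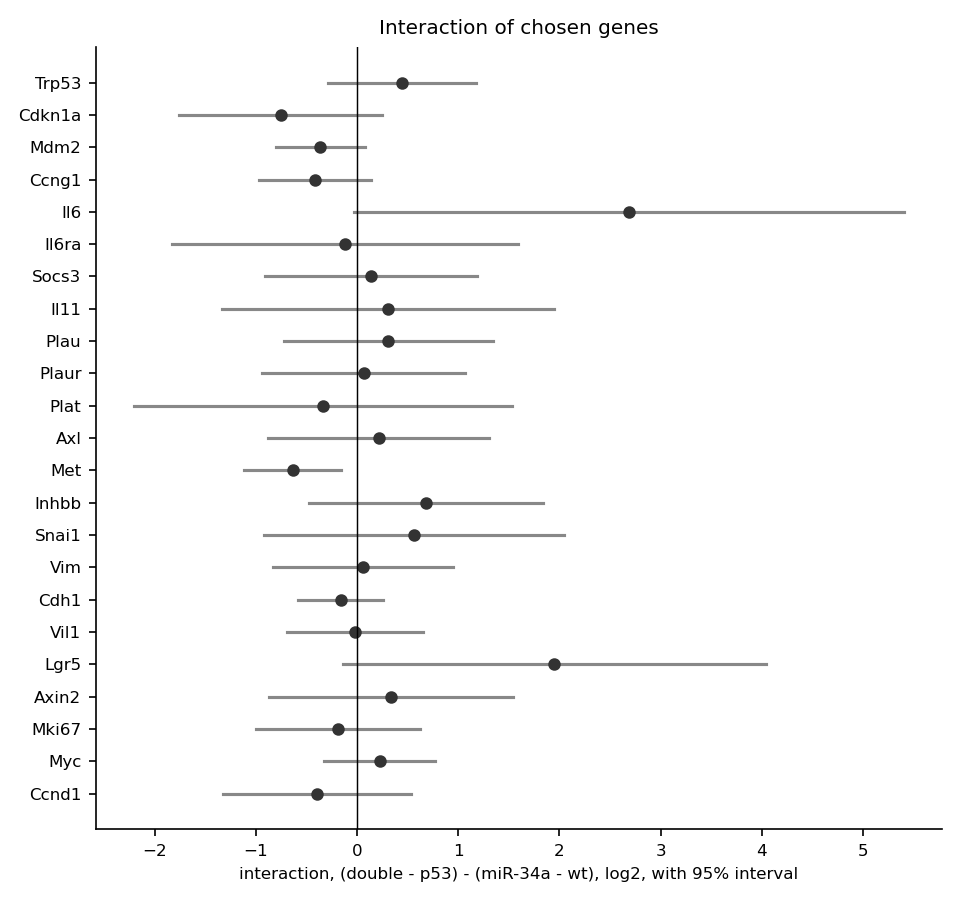
Interaction (log2) with its 95% interval for 23 chosen genes, with p53 and its targets at the top. Il6 (2.69) and Lgr5 (1.95) have the highest estimates with intervals that reach below 0, and Met (-0.64) is the gene whose interval lies below 0, without passing after adjustment over all genes.

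Several of the chosen receptor and transition genes are known as miR-34a targets. Axl, a receptor tyrosine kinase gene, had 1361, 880 and 622 in double deficient libraries, against 854, 646 and 417 in p53 deficient libraries, and 1061, 1382 and 982 in miR-34a deficient libraries, against 701, 1351 and 733 in wt libraries. Its interaction was 0.21 ± 0.50, with changes of 0.56 ± 0.35 without p53 and 0.35 ± 0.35 with p53. Met, the hepatocyte growth factor receptor gene, had 5080, 4444 and 4741 in double deficient libraries, against 5270, 4291 and 6040 in p53 deficient libraries, and 4150, 5242 and 4905 in miR-34a deficient libraries, against 3513, 3554 and 2894 in wt libraries. The wt libraries alone stood lower, and the interaction of -0.64 ± 0.22 (95% interval -1.11 to -0.16) had an adjusted p of 0.517. Snai1, a repressor of epithelial genes, had 102, 63 and 62 in double deficient libraries, against 50, 18 and 51 in p53 deficient libraries, and 66, 91 and 82 in miR-34a deficient libraries, against 43, 108 and 41 in wt libraries (0.57 ± 0.68). Inhbb, which encodes an activin subunit, had 871, 414 and 649 in double deficient libraries, against 208, 131 and 280 in p53 deficient libraries (1.64 ± 0.37, adjusted p = 0.0835), and 449, 435 and 614 in miR-34a deficient libraries, against 270, 365 and 165 in wt libraries (0.96 ± 0.37), with an interaction of 0.68 ± 0.53.

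Of 61 published targets 59 were tested, and none was called, beside 0.0234% of all genes tested. Of the 59, 29 were above and 30 below 0, with a median interaction of -0.01. Cdk6 (-1.33 ± 0.34, adjusted p = 0.378) and Cdk4 (0.57 ± 0.19, adjusted p = 0.516), both cell cycle kinase genes, had the smallest p together with Hdac1. Cdk6 had 1029, 789 and 904 in double deficient libraries, against 852, 1578 and 1183 in p53 deficient libraries, and 1663, 1667 and 1232 in miR-34a deficient libraries, against 831, 893 and 628 in wt libraries. Its miR-34a deficient libraries were above wt without overlap. None of the 59, Cdk6 included, was called in miR-34a deficient against wt, beside 0.0375% of all genes tested. Matches to the seed were searched on the sense strand of the longest annotated 3' untranslated region of 16546 genes, as CACTGCC (7mer-m8) and CACTGCCA (8mer, which contains it). A match was held by 2862 genes (17.3%), of which 1005 had the 8mer (6.07%). None of the 2862 was called, beside 1 of the 13684 genes without a match and 0.0234% of all genes tested. Calls this rare cannot tell genes with a match from others. The median interaction of the 2862 was -0.05, with -0.03 for the 8mer and -0.06 for the 7mer-m8 alone. It was 0.01 for the 13684 genes without a match and -0.03 for the 6982 of those whose region has 1000 bases or more. Medians of the change with miR-34a loss over genes with a match were 0.02 without p53 and 0.05 with p53, against 0.04 and 0.01 over genes without one, and 0.01 and 0.03 over genes without one whose region has 1000 bases or more.

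Markers of cell types were read beside these values, since in bulk tumours fewer cells of a type and less RNA per cell cannot be told apart. No member of any of the 38 lists passed in the interaction, beside 0.0234% of all genes tested. With calls this rare, a count of 0 in a list says little. Apart from Y-linked genes, the lowest medians were those of colonocyte and goblet cell markers, followed by glial and neuronal (-0.72) and squamous differentiation genes (-0.65). Of 35 colonocyte markers 28 were below 0, 6 at an unadjusted p under 0.05, with a median of -0.86 made up of -1.39 without p53 and -0.41 with p53. Of all 21322 genes tested, 987 were below 0 at that threshold. Atp12a, a colonic proton pump gene, had 1477, 4516 and 1233 in double deficient libraries, against 55233, 119914 and 34757 in p53 deficient libraries, and 23213, 51587 and 7195 in miR-34a deficient libraries, against 41489, 53979 and 51628 in wt libraries (-3.67 ± 0.97, adjusted p = 0.419). Its change without p53 passed (-4.92 ± 0.68, adjusted p = 0.0094). Scnn1b, a sodium channel subunit gene, had -1.58 ± 0.41.

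Of 24 goblet cell markers 20 were below 0, with a median of -0.85 (-1.26 without p53 and -0.40 with p53). Retnlb, a goblet cell antimicrobial protein gene, had 12, 95 and 17 in double deficient libraries, against 7128, 1449 and 5455 in p53 deficient libraries, and 3548, 7650 and 621 in miR-34a deficient libraries, against 5662, 4796 and 10451 in wt libraries. The double deficient libraries were below all 9 others, beside 2.18% of all genes tested. The change of Retnlb without p53 passed (-7.09 ± 0.96, adjusted p = 0.00854), and the interaction of -5.73 ± 1.35 did not (adjusted p = 0.336). Foxa2, a secretory lineage factor gene, had -1.08 ± 0.41. Of 23 enteroendocrine markers 18 were below 0 (median -0.32, and 0.074 without miR-34a deficient 2), among them the hormone gene Insl5 with 7, 25 and 3 in double deficient libraries, against 226, 1014 and 102 in p53 deficient libraries, and 384, 1043 and 27 in miR-34a deficient libraries, against 393, 197 and 406 in wt libraries (-4.43 ± 1.72, adjusted p = 0.567). The low values of miR-34a deficient 3 in Atp12a, Retnlb and Insl5 stand beside its high squamous keratins, and a link between them was not tested. The 26 alternative fits include a fit without this library. Over them the interaction lay between -4.54 and -3.01 for Atp12a, -6.75 and -4.94 for Retnlb and -6.65 and -3.32 for Insl5. None of these passed. Epithelial junction genes, which mark epithelium as a whole, had a median of -0.14.

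Lists on the positive side included those of stem and cycling cells and of some immune cells. Lgr5, a stem cell receptor gene, had 5907, 1487 and 4732 in double deficient libraries, against 662, 749 and 2685 in p53 deficient libraries, and 1729, 2698 and 2043 in miR-34a deficient libraries, against 2288, 1275 and 6056 in wt libraries (1.95 ± 0.95, 95% interval -0.14 to 4.04, adjusted p = 0.648). All 4 genotypes overlapped. Of 18 intestinal stem cell genes 14 were above 0 (median 0.30), and of 28 Wnt feedback and target genes 20 (median 0.45). The lists share Lgr5, Ascl2, Axin2, Sox9, Ephb2, Cd44 and Tnfrsf19. Ascl2, a stem cell factor gene, had 1.57 ± 0.72 and Axin2, a Wnt feedback gene, 0.34 ± 0.55. The mean log2 level of the Wnt list was 9.36 in p53 deficient 2, against 10.58 and 10.45 in p53 deficient 1 and 3. The SE of an interaction of these levels was 0.47. Without p53 deficient 2 Axin2 had -0.14. Hox genes had a median of 0.66, which was -0.31 without that library. Of 39 proliferation genes 34 were above 0, 5 at an unadjusted p under 0.05, with a median of 0.33 made up of -0.01 without p53 and -0.39 with p53. Of all 21322 genes tested, 696 were above 0 at that threshold. The mean log2 level of the list was 11.97 in wt 3, against 11.32 and 11.26 in wt 1 and 2 and 11.09 to 11.22 in miR-34a deficient libraries. Double deficient (11.63 to 11.90) and p53 deficient libraries (11.65 to 11.90) overlapped. Rrm2, a nucleotide synthesis gene, had 2458, 3716 and 3490 in double deficient libraries, against 2559, 2880 and 2469 in p53 deficient libraries, and 2265, 1864 and 2433 in miR-34a deficient libraries, against 2743, 2469 and 3838 in wt libraries (0.72 ± 0.29, adjusted p = 0.572). Mki67, a proliferation marker, had -0.19 ± 0.37, Myc 0.22 ± 0.25 and Ccnd1 -0.40 ± 0.42.

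Of 19 tuft cell markers 18 were above 0 (median 0.63), of 15 mast cell markers 14 (median 1.36), of 20 macrophage and monocyte markers 16 (median 0.45) and of 29 inflammatory cytokines and chemokines 22 (median 0.51). The mean log2 level was highest in double deficient 1 for tuft (9.01), mast cell (10.01) and macrophage markers (8.60). The other double deficient libraries had 7.12 and 7.51, 7.66 and 8.40, and 7.64 and 7.74. These lay within the range of the wt libraries for each list. The mast cell protease gene Tpsab1 had 5754, 535 and 1315 in double deficient libraries, against 587, 146 and 281 in p53 deficient libraries, and 208, 577 and 1235 in miR-34a deficient libraries, against 1125, 527 and 229 in wt libraries (2.42 ± 1.29), so the high value of double deficient 1 carried much of it. Il23a, a cytokine subunit gene, had 6065, 2454 and 2374 in double deficient libraries, against 1174, 1137 and 779 in p53 deficient libraries, and 2726, 2725 and 2596 in miR-34a deficient libraries, against 1180, 5201 and 4839 in wt libraries (1.90 ± 0.72, adjusted p = 0.567). Members of a marker list rise and fall together with their cells, so counts of members above or below 0 are not counts of independent genes. Spp1, which encodes osteopontin, had 21070, 9895 and 4812 in double deficient libraries, against 4767, 321 and 616 in p53 deficient libraries, and 3271, 2283 and 1425 in miR-34a deficient libraries, against 1708, 2909 and 3092 in wt libraries (3.53 ± 1.18, adjusted p = 0.517).

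Mesenchymal genes went in both directions around list medians near 0, and none passed. Vim, an intermediate filament gene, had 4919, 2838 and 3086 in double deficient libraries, against 2278, 1852 and 2199 in p53 deficient libraries, and 7757, 6330 and 6409 in miR-34a deficient libraries, against 2744, 6518 and 4280 in wt libraries. Its changes were 0.74 ± 0.29 without p53 and 0.68 ± 0.29 with p53, and the interaction was 0.06 ± 0.40 (95% interval -0.83 to 0.95). Of 19 genes of epithelial-mesenchymal transition 9 were above 0 (median -0.02), of 26 fibroblast and matrix genes 10 (median -0.03) and of 24 endothelial markers 9 (median -0.11). These 3 medians lay on either side of 0 when 1 library was left out. Fn1, the fibronectin gene, had 54501, 61565 and 30997 in double deficient libraries, against 25541, 9328 and 11436 in p53 deficient libraries, and 36380, 38386 and 20303 in miR-34a deficient libraries, against 20497, 41814 and 27891 in wt libraries (1.67 ± 0.58, 95% interval 0.39 to 2.95, adjusted p = 0.526). Tgfb2, a growth factor gene, had -1.51 ± 0.57 (95% interval -2.75 to -0.27, adjusted p = 0.559). Of 17 smooth muscle markers 14 were below 0, with a median of -0.46 made up of 0.21 without p53 and 0.68 with p53. Cdh1, the epithelial cadherin gene, had -0.16 ± 0.19. Immediate early genes had a median of -0.31, which was 0.33 without p53 deficient 2, with Klf6, a zinc finger factor gene of this list, at 7280, 7479 and 7401 in double deficient libraries, against 16179, 28200 and 18734 in p53 deficient libraries, and 12353, 12100 and 11003 in miR-34a deficient libraries, against 12349, 15265 and 13223 in wt libraries (-1.27 ± 0.25, adjusted p = 0.259). For Klf6 the double deficient libraries were below the other 9, beside 2.18% of all genes tested. The change of Klf6 without p53 passed (-1.47 ± 0.18, adjusted p = 0.00424).

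**Figure D5:**
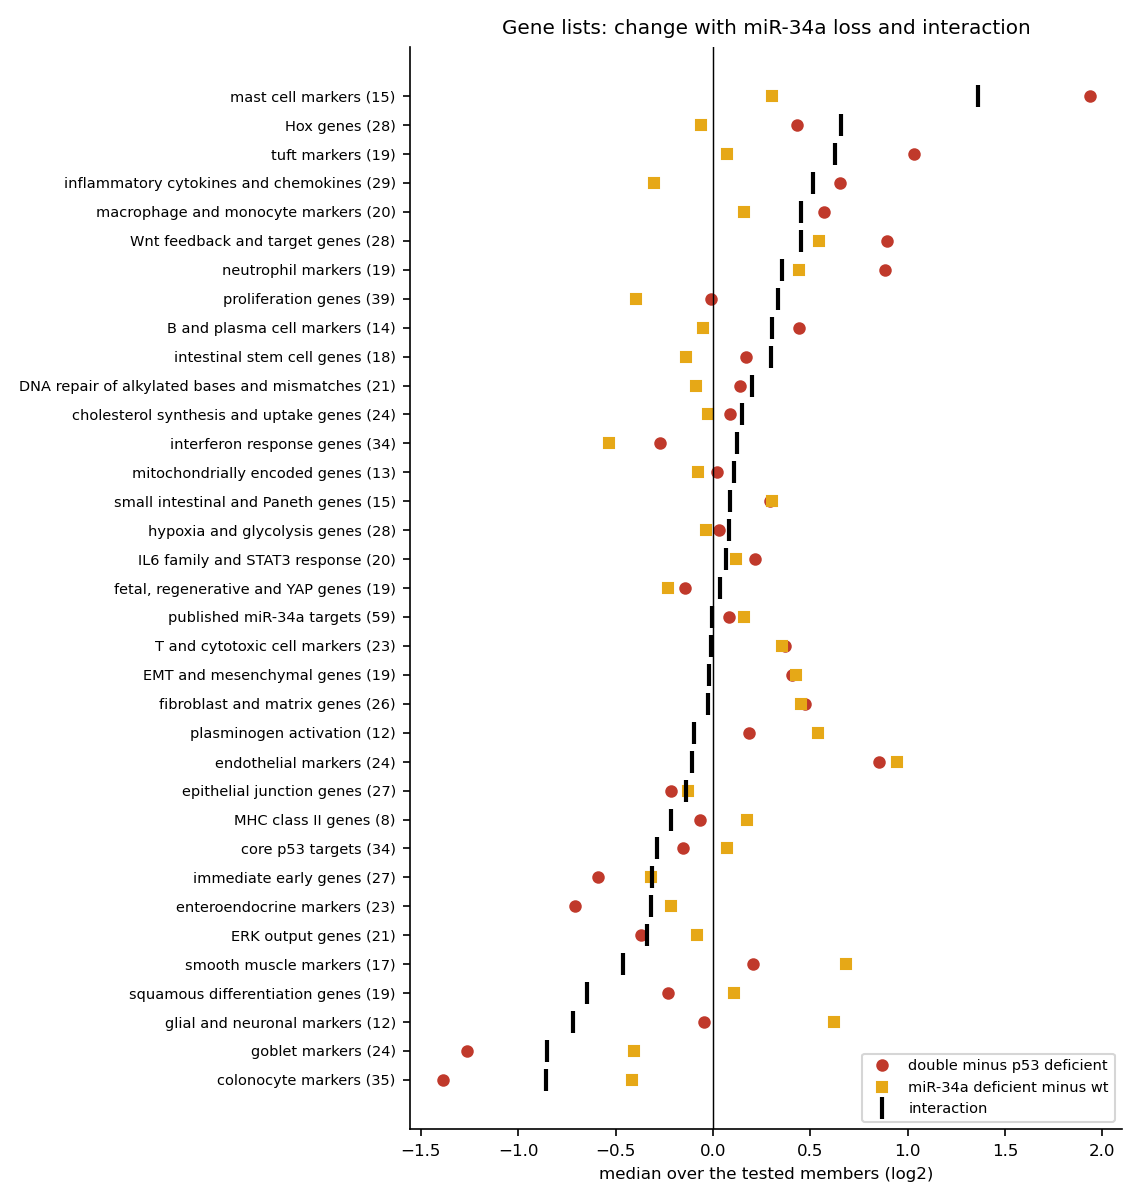
Median over the tested members (number in brackets) of the change with miR-34a loss without p53 (circles), with p53 (squares) and of the interaction (bars), log2, for gene lists with at least 5 tested members, without Y-linked genes and X inactivation RNAs. Colonocyte (-0.86) and goblet cell markers (-0.85) lie lowest and mast cell markers (1.36) highest; a median of the interaction need not equal the difference of the other medians.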

How the data were processed

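RNA of 12 azoxymethane-induced colon tumours of FvB mice was sequenced, 3 libraries per genotype. The file deposited by the authors holds a score per gene symbol: an expression value already normalized by them and written as a whole number, with upper quartiles between 1905 and 1982.25. It uses mm10, per the submitters' processing notes. How reads were aligned, counted and normalized is not given in the sources used here, and the depth of each library is unknown, so count tests were not used. The deviations of libraries from genotype means lack 1 of 8 dimensions (seventh singular value 32.2, last 0.179, in the 9791 genes whose mean reached 500).

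A pseudocount of 1 was added before taking log2, so that changes of low genes are understated. Genes with a mean of at least 1 were fitted with limma 3.58.1 in R 4.3.3 (trend in the prior variance, 1 mean per genotype, 8 residual degrees of freedom), and p-values were adjusted by Benjamini-Hochberg over all 21322 genes. All groups share 1 estimate of the spread. Errors of changes are SE of this fit. It counts 8 dimensions where the deviations span 7, so its SE and p-values may be too small. With the missing direction as a term, the interaction of Fshr stayed at -4.47 and its SE went from 0.46 to 0.49. The procedure was run on simulated data with independent normal errors for each gene and library. These lack the missing direction and the Y-linked difference, so the run does not bear on the calls made here. Sequences were matched with BLAST 2.17.0 to GENCODE M21 (GRCm38), where 97.5% of the genes tested had a record, and the microRNA was taken from RefSeq. The genes named are the chosen genes (23 reported), the called genes, 10 genes per direction (called genes by size of change, then by smallest p, with a mean log2 of at least 5 and no clone name) and up to 4 members per list with the smallest p. Results of some genes that this rule names are not reported here. Genes named outside this rule are marked as chosen after their values were seen. The comparison, the lists and the chosen genes were selected with earlier results of these data known. Replicate numbers were not used to pair libraries: of 18 pairs with the same number, 7 had a correlation above 0.1.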

Additional observations from a re-analysis of the deposited data

Results flagged for a closer look

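A difference between the change with miR-34a loss without p53 and the change with p53 was found, by the test of the interaction itself (limma, adjusted over 21322 genes), for 5 genes. The interactions were -6.73 for Gm15195, -4.47 for Fshr, -4.42 for Gm12196, -4.79 for Gm10093 and -4.49 for Gm7125, each below 0 in the same way: low in all 3 double deficient libraries and not in the other 9. Of these, 4 hold retrocopies of Hmgn2 or Hdac1, and the sum of Hdac1 and its copy Gm10093 had an interaction of 0.29 that did not pass. With 3 libraries per genotype no library was tested as an outlier of its group.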

How the results depend on the processing

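Genes called in the interaction numbered 5, and 1 with the Y-linked mean as a covariate, 2 with the missing direction as one, 3 without wt 1 and miR-34a deficient 1 (1 of them among the 5, an alternative chosen after seeing the data), 19 with sample weights, whose fit did not converge, and 2 to 10 without 1 library. Other counts moved too, and the cause was not tested. Calls of miR-34a deficient against wt (8) were 5 with quantile normalization, no trend, the Y-linked covariate, the missing direction or without those 2 libraries, and 4 to 12 without 1 library. Calls of double against p53 deficient (129) were 57 with no trend, 7 with the Y-linked covariate, 47 with the missing direction, 1744 with sample weights, 51 without the 2 libraries and 27 to 294 without 1. Calls of p53 deficient against wt (5) were 3 with a pseudocount of 10, 8 within the 10 libraries that share the name code, 1 with the Y-linked covariate, 2 with the missing direction, 0 without the 2 libraries (limma, 2546 at an unadjusted p under 0.05) and 1 to 88 without 1. Calls of double against miR-34a deficient (193) were 86 with the library name code as a covariate, 79 within the 10 libraries that share the name code, 73 with the Y-linked covariate, 57 with the missing direction, 8005 with sample weights, 40 without the 2 libraries and 23 to 246 without 1.

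With the replicate number as a block the interaction had 3 calls (Ly6g, Gm15195 and Fshr), p53 deficient against wt had 2, and the other counts stayed within 1.5 times. Of 12 libraries 4 lay closest to one with their own number, and same-number pairs correlated between -0.206 and 0.501, so the numbers were not read as pairs.

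Of the chosen genes and the genes named per direction, 41 did not pass, and 12 of these changed sign somewhere, with none passing there. Of these 41, 7 passed somewhere: Gpr110, Fam124a, Phactr4, Ikzf2 and Ly6g with sample weights, Ly6g with the replicate block, Pag1 and Gsta1 without p53 deficient 1, and Gsta1 with the name code as a covariate or within the 10 libraries. Of 154 other genes (list members with the smallest p, retrocopy families and genes chosen after their values were seen) 13 changed sign somewhere, none passing there, and Gm16510 and Gm9825 passed somewhere. Without 1 library the interaction lay between -0.20 and 0.18 for Vil1, -0.69 and 0.385 for Il6ra, -0.15 and 0.49 for Socs3, -0.29 and 0.74 for Il11, -0.17 and 0.65 for Plau, -0.28 and 0.28 for Plaur, -1.10 and 0.13 for Plat, -0.091 and 0.49 for Axl, -0.14 and 0.65 for Axin2, -0.25 and 0.37 for Vim and -0.46 and 0.036 for Mki67. With the library name code as a covariate, and likewise within the 10 libraries that share the name code, it was 0.22 for Il6ra, -0.078 for Socs3 and -0.33 for Plaur. With the Y-linked covariate it was 0.053 for Il6ra, 0.13 for Plat, -0.084 for Axl and 0.19 for Mki67. With sample weights it was 0.12 for Vil1, -0.23 for Il11, -0.24 for Axl and -0.15 for Vim, with quantile normalization 0.041 for Vil1 and 0.18 for Cdh1, and without the 2 libraries 0.047 for Plat and 0.17 for Mki67. Hmgn2, which holds most of its family's sum, went to -0.039 with its copies added up. Median-of-ratios rescaling and quantile normalization moved the median of all genes to 0.02 and 0.04. Medians of 21 of 38 lists changed sign somewhere, among them the IL-6 family, published targets, plasminogen activation, epithelial-mesenchymal transition, fibroblast and endothelial lists, and immediate early genes (0.134 with sample weights). Depth is unknown, so a detection limit cannot be given.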
